A study of Homo sapiens with 6 samples.

Results

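The 8 transcripts described here encode enzymes of proline synthesis (PYCR1, ALDH18A1, OAT), of the arginine-making and arginine-splitting part of the urea cycle (ASS1, ASL, ARG2) and of polyamine turnover (ODC1, SAT1). They were taken by gene symbol from a table of 54261 symbols, all 8 were found there, and all 8 passed the filter on low counts. RNA-seq was performed on 786-O, a long-established human cell line from a clear cell carcinoma of the kidney. Cells had received control guide RNA (genotype given as PHF8 wild type, 3 libraries) or guide RNA against PHF8 (genotype given as PHF8 knockout, 3 libraries) with CRISPR-Cas9. Both groups shared the line and its culture in RPMI-1640 with serum. PHF8 removes methyl groups from histone lysines. Neither the clonality of the knockout cells nor the origin of the 3 libraries in separate cultures is labelled, so every p-value rests on library-to-library spread that may be technical only.

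These enzymes meet at a small set of metabolites. ALDH18A1 turns glutamate into pyrroline-5-carboxylate, PYCR1 in mitochondria and PYCR3 in the cytosol reduce that intermediate to proline, and OAT links it to ornithine. ASS1 joins citrulline with aspartate, ASL splits the product into arginine and fumarate, and arginase (ARG1 in liver cytosol, ARG2 in mitochondria) splits arginine into urea and ornithine. ODC1 commits ornithine to polyamines, and SAT1 acetylates spermidine and spermine for breakdown or export. Clear cell renal carcinoma is known for low levels of several urea cycle enzymes, ASS1 among them.

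The counted reads per library ran from 21533615 to 25055762 in control and from 25632275 to 29095133 in knockout cells, so depth did not overlap between the groups; values below are CPM (each count scaled to a fixed total per library) with TMM factors. PHF8 itself was lower in each knockout library, at 30.96%, 19.3% and 36.7% of its control mean in libraries 1, 2 and 3. Of the 10 markers of a renal carcinoma line, 8 had a mean of at least 1 CPM, with PAX8 at 223.1 ± 11.01 CPM in control and 363 ± 43.0 CPM in knockout cells and PAX2 at 6.56 ± 0.67 and 3.09 ± 0.46 CPM (SD, n = 3 each), while CA9 lay at 0.62 and 0.61 CPM. NDUFA4L2, also below 1 CPM, lay at 0.11 and 0.51 CPM. Of the 9 tested genes of that list 4 were called higher and 1 lower, beside 28.9% and 30.8% of all tested genes. The list's summed level was 6804 to 6886 CPM in control and 7557 to 9027 CPM in knockout libraries. Most of that sum was VIM, at 5148 ± 14.7 and 5984 ± 821 CPM (SD, n = 3 each). Of 8 blood cell markers 6 had no read in any library, among them PTPRC, and the list's sum of 43.7 to 48.0 CPM in control and 111.9 to 121.5 CPM in knockout libraries was nearly all CD68, a lysosomal protein gene. The endothelial list (6 markers, CDH5 and EMCN at 0) summed to 2.05 to 2.32 and 2.96 to 4.52 CPM, and the fibroblast list (6 markers, COL3A1 at 0) to 4.48 to 4.92 and 1.41 to 2.25 CPM.

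Of the 8 enzymes, 7 were higher and 1, ASL, was lower in knockout cells at an adjusted p under 0.05 (Benjamini-Hochberg, edgeR's quasi-likelihood test). Over all 14398 tested genes 28.9% were called higher and 30.8% lower, 59.7% in all. The 8 enzymes were chosen with earlier results of these data known, so a comparison with these shares cannot measure an excess. The median log2 fold change of the 8 was 1.20, against -0.01 over all tested genes. In all 8 the 3 knockout libraries lay to one side of the 3 control libraries, as they did in 66.8% of tested genes, and the 7 higher ones compare with 32.6% of genes without overlap in that direction. With the criterion of the series, which adds a change past 2-fold, PYCR1, ASS1, ARG2 and SAT1 were called higher, a class that held 9.2% of tested genes, and ALDH18A1 lay just short of it at 1.99-fold. When libraries were scaled by their totals alone, the median of all tested genes moved to -0.18 and the share of calls that were higher from 48.4% to 36.7%, while the 7 higher calls and the 1 lower call were kept.

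**Figure D1:**
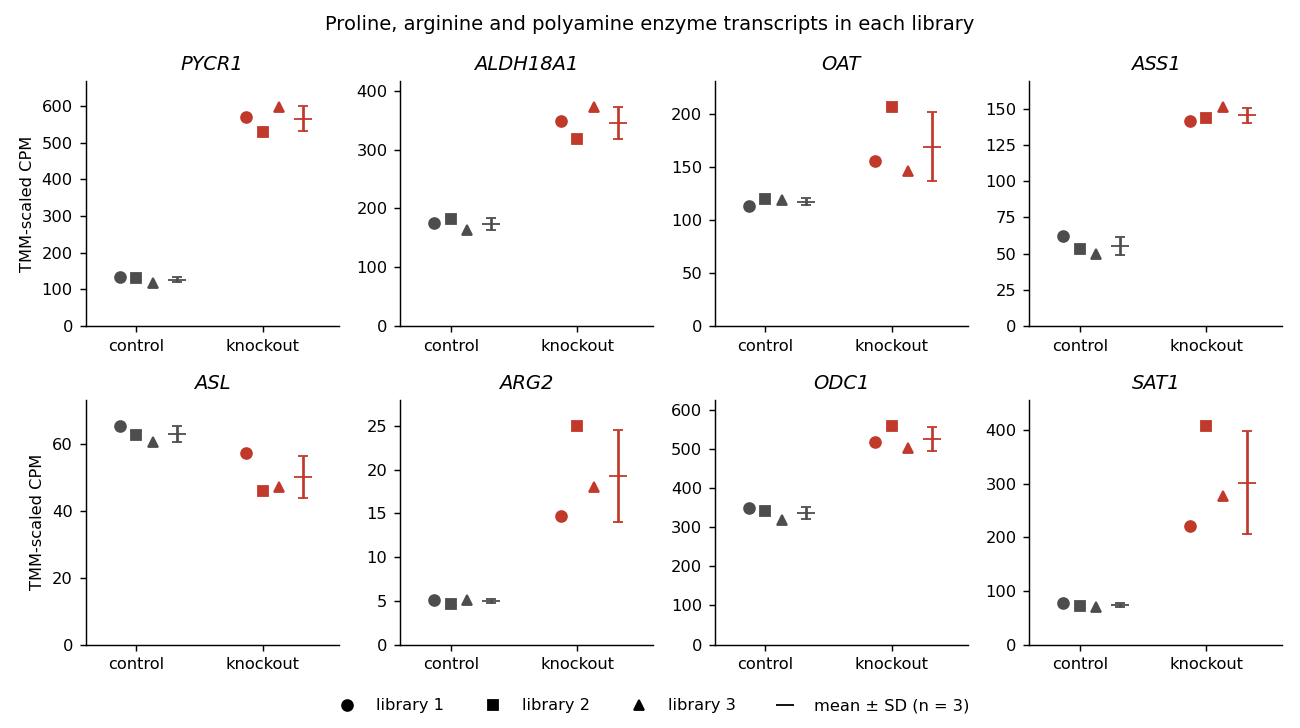
TMM-scaled CPM of the 8 transcripts (y axis, from 0, one panel per gene) in 3 control and 3 knockout libraries of 786-O cells; symbols mark the library number and bars the mean ± SD. The groups do not overlap in any panel; 7 transcripts are higher in knockout libraries and ASL is lower.

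PYCR1 (ENSG00000183010.17, GRCh38 chromosome 17, 81932384 to 81942412, minus strand), which makes proline in mitochondria, rose 4.46-fold. Its level was 133, 130 and 118 CPM in control libraries 1, 2 and 3 and 569, 529 and 597 CPM in the knockout libraries. No knockout library was under 4 times the control mean, and the libraries of each group were close together. On the log2 scale the rise was 2.16 (edgeR adjusted p = 2.12e-06, SE 0.10), and 98.4% of tested genes lay below it. A long noncoding gene of no symbol overlaps PYCR1 exons by up to 387 bases on the opposite strand. Whether reads there were told apart is unknown, because the strand setting of the counting is not given. MYADML2, with 0 reads in all libraries, overlaps PYCR1 exons by up to 330 bases on the same strand. Same-strand genes of no symbol also overlap ASL exons by up to 115 bases and SAT1 exons by up to 90 bases.

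PYCR3, the cytosolic form of the reductase, listed under its older symbol PYCRL, had 42, 51 and 46 reads in control and 60, 69 and 40 reads in knockout libraries. The groups overlapped, and PYCR3 did not pass the test (edgeR adjusted p = 0.41; log2 change 0.26, SE 0.26).

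ALDH18A1 (ENSG00000059573.9, chromosome 10, 95605941 to 95656711, minus strand) encodes the synthase that opens the route from glutamate. It lay at 175, 182 and 163 CPM in control and 348, 318 and 372 CPM in knockout libraries. Each knockout library was near 2 times the control mean, at 200.5%, 183% and 214%. ALDH18A1 thus rose by 0.995 in log2 units (edgeR adjusted p = 5.08e-05, SE 0.10). In control cells PYCR1 and ALDH18A1 had like levels per kilobase, 55.9 ± 3.40 and 51.8 ± 2.87 CPM, and in knockout cells 249 ± 14.9 and 103 ± 8.11 CPM (SD, n = 3 each). The ratio of PYCR1 to ALDH18A1 per kilobase was 1.121, 1.05 and 1.07 in control and 2.42, 2.46 and 2.37 in knockout libraries. The groups did not overlap, and the exact two-sided permutation test gave p = 0.10, the smallest that 3 against 3 allows. The 2 rises lay nearer each other with an offset for length and GC content of transcripts, at 1.61 for PYCR1 and 0.96 for ALDH18A1 (log2).

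OAT (ENSG00000065154.12, chromosome 10, 124397303 to 124418976, minus strand), the aminotransferase between ornithine and pyrroline-5-carboxylate, rose less. Its values were 113, 120 and 118 CPM in control and 155, 206 and 146 CPM in knockout libraries. Knockout library 2 stood above the other 2, and the SD was 2.87% of the mean in control and 19.1% in knockout cells. OAT rose by 0.53 in log2 units (edgeR adjusted p = 7.22e-03, SE 0.13), and by 0.36 without knockout library 2. Proline breakdown was represented by 1 gene: ALDH4A1, which returns the intermediate to glutamate, lay at 19.1 ± 2.29 and 18.3 ± 1.81 CPM (edgeR adjusted p = 0.70; log2 change -0.07, SE 0.14), but passed as lower with an offset for length and GC content of transcripts (-0.39). PRODH, the proline oxidase, had 0, 1 and 0 reads in control and 1, 0 and 2 reads in knockout libraries, and its relative PRODH2 had none, so no difference was detectable at this depth.

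Among the 11 genes of the proline list, 9 were tested, with a median log2 fold change of 0.995. Of these, 6 rose and 0 fell, beside 28.9% called higher and 30.8% called lower over all tested genes. With the offset 7 were higher and 1 lower, and the median was 0.61. For all 14398 tested genes the offset gave 4389 higher and 4041 lower, with a median of 0.01. Outside the 3 enzymes above, 3 of 6 rose. P4HA2 and P4HA3, catalytic subunits of the hydroxylases that modify proline in collagen, rose from 149.9 ± 5.20 to 326 ± 14.7 CPM and from 2.65 ± 0.27 to 5.66 ± 0.73 CPM. PEPD, the peptidase that frees proline from dipeptides, rose from 63.2 ± 1.98 to 134 ± 8.92 CPM (edgeR adjusted p = 3.38e-05; SD, n = 3 each), which is 1.08 in log2 units and 0.52 with the offset. P4HA1, PYCR3 and ALDH4A1 did not pass the test. P4HA1 is named after its values were seen, at 80.5 ± 6.74 and 75.6 ± 11.3 CPM (SD, n = 3 each), and passed as higher with the offset (0.21).

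ASS1 (ENSG00000130707.18, chromosome 9, 130444961 to 130501274, plus strand), the citrulline-consuming step of arginine synthesis, rose. Its level was 62.1, 53.2 and 49.95 CPM in control and 142, 144 and 151 CPM in knockout libraries. The knockout libraries were closely grouped, with an SD of 3.47% of the mean against 11.4% in control cells. This was a 2.64-fold rise, 1.40 in log2 units (edgeR adjusted p = 2.08e-05, SE 0.11). The 14 rows of processed ASS1 pseudogenes held 18 reads over the 6 libraries, against 15164 for ASS1, and reads that fit several copies could have been dropped in counting.

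ASL (ENSG00000126522.17, chromosome 7, 66075800 to 66094697, plus strand), the next enzyme, was the exception. It had 65.4, 62.6 and 60.6 CPM in control and 57.2, 45.9 and 47.1 CPM in knockout libraries. The groups did not overlap, with knockout library 1 nearest to the control range. In log2 units ASL changed by -0.33 (edgeR adjusted p = 0.031, SE 0.11). The call was lost without control library 1, 2 or 3 (edgeR adjusted p = 0.11, 0.11 and 0.080) or knockout library 3 (edgeR adjusted p = 0.11, with 3.51e-05 to 0.11 over all alternatives). Per kilobase, the ratio of ASS1 to ASL was 1.33, 1.19 and 1.15 in control and 3.45, 4.38 and 4.49 in knockout libraries, without overlap (exact two-sided permutation p = 0.10, the smallest possible).

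ARG2 (ENSG00000081181.8, chromosome 14, 67619920 to 67651708, plus strand), the mitochondrial arginase, rose from a low level. It had 117, 117 and 135 reads in control and 353, 621 and 491 reads in knockout libraries, which is 5.13, 4.68 and 5.04 CPM and 14.7, 25.0 and 18.0 CPM. Knockout library 2 was the highest and library 1 the lowest, 1.71 times apart, while control libraries differed by 1.10 times. ARG2 rose by 1.96 in log2 units (edgeR adjusted p = 6.80e-05, SE 0.20), and by 1.73 without knockout library 2. The last exons of ARG2 overlap those of VTI1B on the opposite strand by up to 767 bases. Whether the counting told reads of the 2 genes apart there is likewise unknown. VTI1B lay at 91.9 ± 2.12 CPM in control and 79.9 ± 9.51 CPM in knockout cells (SD, n = 3 each) and did not pass the test (edgeR adjusted p = 0.13), but passed as higher with the offset (0.45).

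No other tested gene of the urea cycle passed as higher without the offset. CPS1, the mitochondrial synthetase that feeds ammonia into the cycle, fell: it had 36.2, 37.6 and 38.0 CPM in control and 10.2, 7.06 and 8.85 CPM in knockout libraries. No knockout library came near the control range. CPS1 was 4.28-fold lower, -2.10 in log2 units (edgeR adjusted p = 1.41e-05, SE 0.15), and -1.47 with the offset. The ratio of CPS1 to ASS1 per kilobase was 0.18 ± 0.024 in control and 0.016 ± 0.0031 in knockout cells (SD, n = 3 each), a difference that is smaller with the offset, where CPS1 changed by -1.47 and ASS1 by 0.81 in log2 units. OTC, which makes citrulline from ornithine, and ARG1, the liver arginase, had no read in any library, which allows up to 0.043 CPM in control and 0.037 CPM in knockout cells by library totals (3 counts over each group's reads, counting error only). NAGS, which makes the activator of CPS1, lay at 2.37 ± 0.46 and 1.76 ± 0.50 CPM (edgeR adjusted p = 0.19), and the ornithine carrier gene SLC25A15 at 21.3 ± 1.41 and 22.6 ± 1.83 CPM (edgeR adjusted p = 0.55). With the offset NAGS passed as lower (-1.01 in log2 units) and SLC25A15 as higher (0.29).

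Of the 20 genes of the arginine and urea list, 12 were tested, with a median log2 fold change of -0.28. Of these, 2 rose (ASS1 and ARG2) and 4 fell, beside 28.9% and 30.8% of all tested genes. With the offset 4 were called higher and 6 lower, with a median of -0.93. All 14398 tested genes then had 4389 higher and 4041 lower, with a median of 0.01. DDAH1, which degrades methylated arginine that inhibits nitric oxide synthases, fell from 83.2 ± 9.49 to 28.8 ± 1.34 CPM (log2 change -1.53, SE 0.12; SD, n = 3 each). The arginine transporter gene SLC7A2 had 57, 51 and 63 reads in control and 0, 1 and 30 reads in knockout libraries (edgeR adjusted p = 0.020; log2 change -2.51, SE 0.78). Its remaining reads thus came almost wholly from knockout library 3, and without it the change was -6.49 in log2 units. The call on SLC7A2 was lost with DESeq2 (adjusted p = 0.17), with the offset (edgeR adjusted p = 0.091) and without control library 1 (edgeR adjusted p = 0.062, with 2.37e-08 to 0.17 over all alternatives). SLC7A1, the main arginine importer of many cell types, lay at 128 ± 4.79 and 146.8 ± 36.6 CPM and did not pass the test (edgeR adjusted p = 0.33). It did pass as higher without knockout library 2 (0.40 in log2 units) and with the offset (0.55). GATM, the first enzyme of creatine synthesis from arginine, had 8 to 29 reads per library and did not pass the test (edgeR adjusted p = 0.90).

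**Figure D2:**
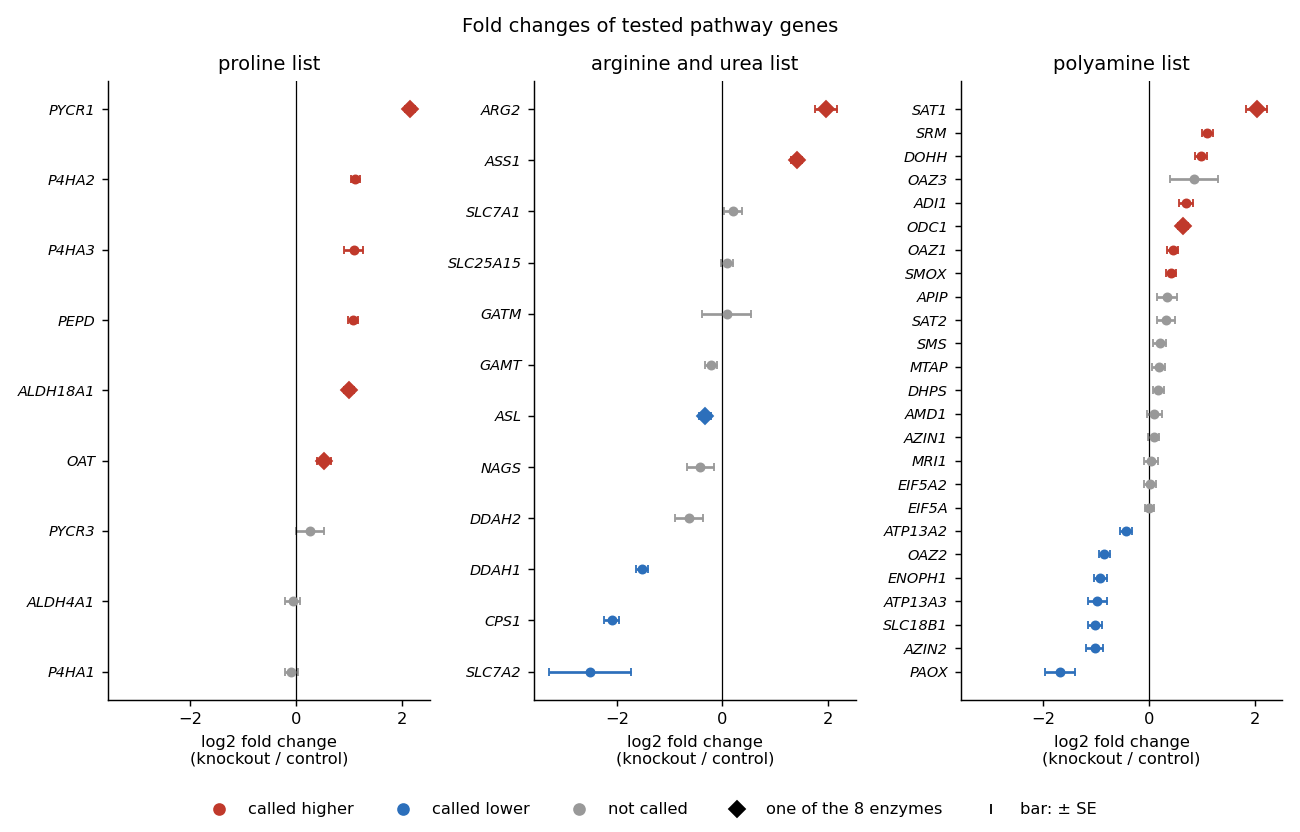
Log2 fold change, knockout over control (x axis), with its SE, of the tested genes of the proline, arginine and urea, and polyamine lists (n = 3 libraries a group); diamonds are the 8 enzymes and colours give the call at an edgeR adjusted p of 0.05. In the proline list 6 of 9 genes were called higher and 0 lower, in the arginine and urea list 2 higher and 4 lower of 12, and in the polyamine list 7 higher and 7 lower of 25. Over all 14398 tested genes 28.9% were called higher and 30.8% lower. The lists were chosen with earlier results of these data known.

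ODC1 (ENSG00000115758.14, chromosome 2, 10439968 to 10448327, minus strand), the committed step of polyamine synthesis, was the most abundant of the 8 in control cells, also per kilobase. It had 349, 343 and 318 CPM in control and 517, 559 and 502 CPM in knockout libraries. The libraries of each group were close together, with SDs of 4.81% and 5.70% of the mean. The rise was 1.56-fold, 0.64 in log2 units (edgeR adjusted p = 2.79e-04, SE 0.09).

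SAT1 (ENSG00000130066.17, chromosome X, 23783173 to 23786210, plus strand), the acetylating enzyme of polyamine breakdown, rose further. It had 76.8, 72.5 and 70.3 CPM in control and 221, 408 and 276 CPM in knockout libraries. Library 2 was again the highest, 1.85 times library 1, and the knockout SD was 31.9% of the mean, more than in 87.4% of tested genes. SAT1 rose by 2.04 in log2 units (edgeR adjusted p = 5.39e-05, SE 0.20), and by 1.77 without library 2. Per kilobase, the ratio of SAT1 to ODC1 was 0.52, 0.50 and 0.52 in control and 1.01, 1.72 and 1.30 in knockout libraries, without overlap (exact two-sided permutation p = 0.10, the smallest possible).

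In the polyamine list without ODC1 and SAT1, 5 of 23 tested genes rose and 7 fell, beside 28.9% and 30.8% of all tested genes. With the offset 8 were higher and 8 lower, beside 4389 and 4041 of all 14398 tested genes. SRM, which makes spermidine, rose from 145 ± 7.15 to 314 ± 30.6 CPM (edgeR adjusted p = 4.17e-05; log2 change 1.11, SE 0.10; SD, n = 3 each), but by 0.38 in log2 units with the offset. SMS, which makes spermine, lay at 303 ± 8.47 and 349 ± 65.7 CPM (edgeR adjusted p = 0.19) and AMD1, the source of their aminopropyl groups, at 119.7 ± 20.1 and 128 ± 13.9 CPM (edgeR adjusted p = 0.55), although AMD1 passed as higher with the offset (0.63 in log2 units). DOHH, which completes the spermidine-derived hypusine of a translation factor, rose 1.98-fold (0.99 in log2 units, and 0.29 with the offset). ADI1 of methionine salvage, named after its values were seen, rose 1.62-fold. MTAP, APIP and MRI1 of the same route, named likewise, did not pass the test (edgeR adjusted p = 0.20, 0.14 and 0.80). With the offset MTAP and APIP passed as higher (1.07 and 0.35 in log2 units).

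Genes that act after SAT1 or on ODC1 protein also differed from one another. PAOX, the oxidase of acetylated polyamines, fell from 2.68 ± 0.73 to 0.84 ± 0.19 CPM (edgeR adjusted p = 1.02e-03; log2 change -1.68, SE 0.29, and -2.32 with the offset; SD, n = 3 each). SMOX, which oxidises spermine directly, rose 1.33-fold (edgeR adjusted p = 3.58e-03), but its log2 change was -0.13 with the offset. OAZ1, the antizyme that sends ODC1 protein to the proteasome, rose 1.37-fold (edgeR adjusted p = 4.91e-03), but its log2 change was -0.16 with the offset. OAZ2, a second antizyme, fell 1.79-fold (edgeR adjusted p = 1.65e-04). AZIN1, an antizyme inhibitor, lay at 209 ± 11.1 and 222 ± 29.7 CPM and passed as higher only with the offset (0.75 in log2 units), while its relative AZIN2 fell 2.03-fold. SAT2, a relative of SAT1, lay at 17.2 ± 2.27 and 21.48 ± 4.13 CPM (SD, n = 3 each; edgeR adjusted p = 0.12). ENOPH1 of methionine salvage and the vesicular polyamine transporter gene SLC18B1 fell 1.89-fold and 2.03-fold. The polyamine transporter genes ATP13A2 and ATP13A3, named after their values were seen, fell 1.35-fold and 1.96-fold, and the log2 change of ATP13A3 was 0.05 with the offset.

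**Figure D3:**
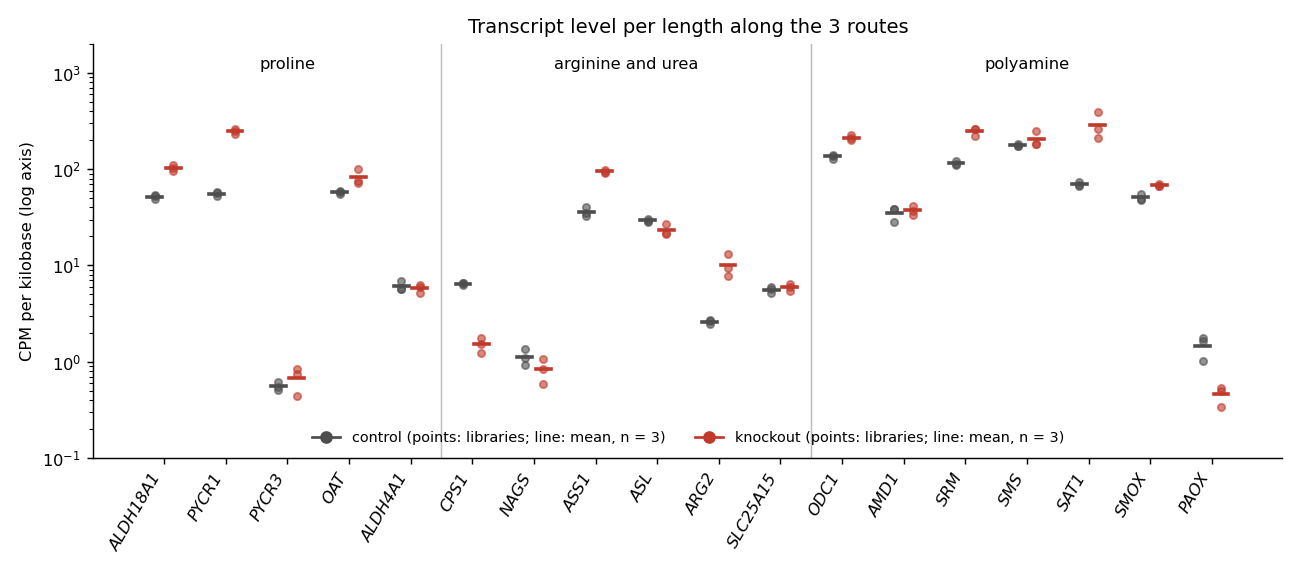
CPM per kilobase of the GENCODE canonical transcript (y axis, log) of 18 genes ordered by route; points are libraries and lines group means (n = 3). PYCR1 rises from 55.9 to 249, SAT1 from 69.8 to 287 and ARG2 from 2.59 to 10.1, and CPS1 falls from 6.48 to 1.51.

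The order of the 8 levels per kilobase differed between the groups. In control cells ODC1 (136 ± 6.54 CPM per kilobase) stood first, SAT1 (69.8 ± 3.16) second, then OAT, PYCR1 and ALDH18A1 between 57.5 and 51.8, ASS1 (36.0 ± 4.10), ASL (29.4 ± 1.13) and ARG2 (2.59 ± 0.12; SD, n = 3 each). In control libraries PYCR1 overlapped both OAT and ALDH18A1, which did not overlap each other. In knockout cells SAT1 (287 ± 91.6), PYCR1 (249 ± 14.9) and ODC1 (212 ± 12.1) led, and SAT1 libraries overlapped both of the others. ALDH18A1 (103 ± 8.11), ASS1 (94.9 ± 3.29) and OAT (82.9 ± 15.9) followed with overlapping libraries, then ASL (23.4 ± 2.92) and ARG2 (10.1 ± 2.77; SD, n = 3 each).

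The knockout libraries did not rank the members alike. Knockout library 2 was highest for OAT, ARG2, ODC1 and SAT1 and lowest for PYCR1, ALDH18A1 and ASL. Against the mean of knockout libraries 1 and 3 it held 164% of SAT1, 153% of ARG2 and 137% of OAT, but 90.8% of PYCR1 and 88.3% of ALDH18A1. Library 2 also had the lowest PHF8 level of the 3, and its part in these values was not tested. Over all tested genes the median SD was 8.16% of the mean in control and 14.2% in knockout cells, and that of PYCR1, ALDH18A1, ASS1 and ODC1 was under 8% in the latter. The 7 rises and the fall of ASL were all called without library 2.

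**Figure D4:**
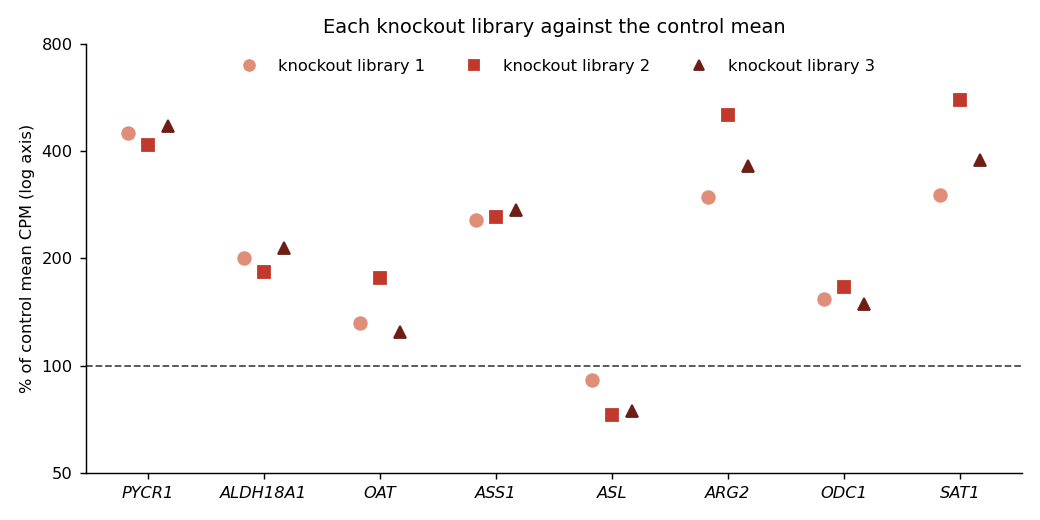
Level of each of the 8 transcripts in knockout libraries 1, 2 and 3 as a percentage of the mean of the 3 control libraries (y axis, log; dashed line, 100%). ARG2, SAT1 and OAT are highest in library 2, at 506%, 557% and 176%, whereas PYCR1 and ALDH18A1 are lowest there, at 418% and 183%.

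Across the 6 libraries, ARG2 and SAT1 were among each other's 3 nearest genes. The measure was the root-mean-square difference in log2 CPM, each gene centred on its control mean, over the 10314 genes whose mean reached 5 CPM. That difference was 0.083 between ARG2 and SAT1, and IFT20 and CCDC85B were the 2 other genes nearest to both. PYCR1 was nearest to SYT13 (0.059), then SIRPB1 and CYP4F11. ALDH18A1 was nearest to KAT5, FBLN7 and COPG1, and ASS1 to CRELD1, CD68 and ZNF787. OAT was nearest to RPIA, CCDC12 and CHMP4C, ODC1 to SNAPIN, NFKBIA and NDUFAF3, and ASL to ECHDC2, IL17RC and ZNF551. With 3 libraries a group, such likeness is mostly the size of the group difference, and it is given as a description.

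The offset for length and GC content of transcripts, a trend fitted in each library, changed the size of several members' differences but no direction or call. With it, the log2 change was 1.61 (SE 0.06) for PYCR1, 0.81 (SE 0.07) for ASS1, 0.41 (SE 0.07) for ODC1 and -0.86 (SE 0.09) for ASL. It was 0.96 for ALDH18A1, 0.61 for OAT, 1.78 for ARG2 and 1.83 for SAT1, nearer to the values without it. For PYCR1, ASS1 and ODC1 the offset gave the lowest value of any alternative run, and for ASL the furthest from 0.

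Sequence before the start sites is shown for the members that held 1 of 2 palindromic motifs there, to place those letters in the genome. RefSeq promoter windows (250 bases before to 50 after each start, GRCh38.p14) were found for 7 of the 8 genes, all but PYCR1. The E-box CACGTG, a site type bound by MYC-MAX and related factors, stood 136 bases before the ALDH18A1 start, 71 before 1 of the 2 ASS1 starts and 29 before 1 of the 2 ODC1 starts, where a second match follows the start. It was present in 7.26% of all 35116 promoter windows. The cyclic AMP response element TGACGTCA occurred at 172 and 64 bases before the ARG2 start, and in 1.85% of all windows. Both motifs read the same on either strand. TGATGNAA, the core of the composite element of ATF4 and C/EBP factors, was searched on both strands and had no match in these windows of the 7 genes, against 3.62% of all windows. These shares are per window and per motif, while ASS1 and ODC1 had 2 windows each, so they give no expectation for a count of genes. A match is a run of letters and does not show that a factor binds there. Motifs are in capitals, 5′ to 3′ on the gene's strand.
ALDH18A1, chr10:95656830-95656859, minus strand: gggctggcccgcCACGTGgagcgctggctt
ASS1, chr9:130444878-130444907, plus strand: gcgcgtccccgcCACGTGtccccggtcacc
ODC1, chr2:10448024-10448053, minus strand: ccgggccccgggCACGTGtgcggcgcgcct
ARG2, chr14:67619736-67619875, plus strand: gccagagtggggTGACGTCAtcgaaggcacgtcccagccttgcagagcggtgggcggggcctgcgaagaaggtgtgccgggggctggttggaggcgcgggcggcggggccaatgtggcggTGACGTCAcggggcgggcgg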

How the data were processed

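The authors deposited raw read counts per gene symbol for 6 libraries. Per the labels and the series design text, total RNA was extracted with Trizol, reads were filtered and mapped to GRCh38 with HISAT2 (version 2.0.4 per the submitters' processing notes) and counted with HTSeq. For HTSeq, its version, its strand setting and the gene models used were not given in the sources. Columns were tied to samples by title. Knockout was tested against control with edgeR 4.0.16 (quasi-likelihood test, R 4.3.3, limma 3.58.1), TMM factors and filterByExpr, with Benjamini-Hochberg adjustment over all 14398 tested genes and a prior count of 0.125 for fold changes. The series text names DESeq2, run here as an alternative (1.42.0). Standard errors (SE) of log2 changes were derived from the F statistic of each test. Lengths, GC content and coordinates come from GENCODE v44 (GRCh38), by symbol, and covered 92.4% of tested genes. The offset was a lowess trend (span 0.3) per library. The analysis was tested on simulated counts. Far fewer genes were changed in them than were called here, so scaling with so many changed genes was not tested. No 2 libraries of a group were duplicates (chi-square per degree of freedom 3.10 to 74.3).

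The 8 members and the lists were chosen with earlier results of these data known. A gene of the proline list is not reported here and was left out of its counts. The text names the members, PHF8, 19 genes of the routes, up to 4 further called genes of each list with the smallest p, and the 3 nearest genes of each member. Alternatives were DESeq2 and limma-voom as tools; upper-quartile factors, median-ratio factors or totals alone as scaling; no filter, or one of over 1 CPM throughout a group; robust dispersion estimates; a replicate-number block; omission of each library; the offset; and the 2-fold criterion.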

Additional observations from a re-analysis of the deposited data

How the results depend on the processing

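PYCR1, ALDH18A1, OAT, ASS1, ARG2, ODC1 and SAT1 kept their direction and their call in all 16 alternative fits, with the largest adjusted p at 0.046 (OAT, library totals only). Their log2 fold changes ran from 1.61 to 2.21, 0.83 to 1.06, 0.36 to 0.63, 0.81 to 1.52, 1.73 to 2.12, 0.41 to 0.69 and 1.77 to 2.23 in that order. ASL kept its direction in all 16 (-0.86 to -0.27) and its call in 12. The count of members called lower was thus 0 to 1 when 1 library was left out. With the 2-fold criterion 4 members were higher and 0 lower, 8 and 6 genes of the 3 lists (15 and 11 by adjusted p alone), and 1324 and 2038 of all tested genes (4158 and 4435). With the length and GC offset, the lists had 21 genes higher and 15 lower, and all tested genes 4389 and 4041. Under it the rises of SAT1 (1.83) and ARG2 (1.78) exceeded that of PYCR1 (1.61). With the replicate number as a block, 7 members were higher and 1 lower, and 3895 and 4413 genes in all. Whether same-numbered libraries were prepared together is not labelled. Their deviations from the group means correlated at 0.020, -0.044 and 0.011 across genes, and control library 2 correlated best with knockout library 3. With 3 libraries a group, these correlations cannot decide it. Depth limits what can be said of PRODH, OTC and ARG1, and of the 11 list genes too low to test, which had at most 7 reads in a library.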
